A study of Sus scrofa with 10 samples.

Results

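The mitochondrial ribosome and the mitochondrial protein import machinery were examined in pig fetal fibroblasts divided by a cell surface sugar. The members were the genes whose single symbol in the array's annotation begins with MRPL or MRPS, the proteins of the large and small mitochondrial ribosomal subunit, or with TIMM or TOMM, the translocases of the inner and outer mitochondrial membrane. There were 76 such genes among 6765 named on the array, 36 of them MRPL, 22 MRPS, 11 TIMM and 7 TOMM, and each was read from its brightest probe set. A further 6 probe sets, 5 for MRPL55 and 1 for MRPL22, carry more than one symbol entry and were left out. The name rule also brings in a few proteins that are not structural parts of these complexes, such as the cytosolic cochaperone TOMM34 and MRPS36, which is known as a subunit of the 2-oxoglutarate dehydrogenase complex.

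The fibroblasts came from Danish Landrace/Yorkshire x Duroc embryos at fetal day 24, from tissue without the head, and were grown on gelatin in serum-containing medium. Magnetic beads directed at SSEA-1, a Lewis X carbohydrate of the cell surface, split them into a positive fraction, SSEA1+, and a negative one, SSEA1-. Both fractions share source, culture and sorting and carry no transgene or added agent, and each had 5 arrays numbered 1 to 5. The cells are called a line and the replicates biological, but no label says that the 5 are separate cultures or animals, so p-values here measure only the spread between these samples, which may be technical. In these sorted bulk samples, fewer cells expressing a gene and less RNA per cell cannot be told apart.

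Mitochondrial ribosomes translate the few proteins encoded by mitochondrial DNA, most of them respiratory chain subunits, while their own protein parts are encoded in the nucleus and imported. Nearly all mitochondrial proteins enter through the TOM complex of the outer membrane. From there presequence proteins pass through the TIM23 complex, and multispanning carriers are escorted by small TIM chaperones to the TIM22 complex. Fibroblasts in culture express these genes as housekeeping genes.

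The values are log2 signals. Background was set at 0.35 from 23 control probe sets for absent sequences, and all 76 members lay above it on all 10 arrays. Of the fibroblast and mesenchyme markers listed, all 12 that were measured lay above background on every array, with a summed signal of 90.9 to 92.9 in SSEA1+ and 90.4 to 92.6 in SSEA1-. The collagen gene COL1A2 rose in SSEA1+, as did 3.21% of all genes. At an unadjusted p under 0.05, 3 of the 12 were higher and 0 lower, against 10.3% and 13.5% of all genes. Of 37 measured markers of endothelial, epithelial, blood, muscle, neural and liver cells, 14 lay above background on every array. None passed the test between fractions in limma. There were 6 at an unadjusted p under 0.05, all higher in SSEA1+, where all genes gave 10.3% higher and 13.5% lower. Of these 6, 4 were among the 7 epithelial markers (EPCAM, CDH1, KRT19 and CLDN4), whose summed signal was 9.09 to 12.2 in SSEA1+ and 7.93 to 12.3 in SSEA1-, and the part of such cells in the results was not tested. By list, 3 of 7 endothelial, 4 of 7 epithelial and 0 of 5 leukocyte markers lay above background on every array. The same held for 1 of 4 erythroid, 2 of 5 muscle, 3 of 3 neural and 1 of 6 liver markers. Below background on all 10 arrays were PTPRC and CD163 (leukocyte), CDH5 and TEK (endothelial) and ALB and FGB (liver). The poly-A spike-in controls, set against the hybridisation controls, were 0.82 higher on the log2 scale in SSEA1+, every positive array lying above every negative one. The hybridisation controls themselves read 6.75 to 7.17 in SSEA1+ and 6.21 to 6.60 in SSEA1-, also without overlap. With the poly-A level, set against the hybridisation controls, as a covariate none of the members passed in limma, and 6 of all 6765 genes did. At an unadjusted p under 0.05 there were 10 members, or 13.2%, against 14.6% of all genes, and the median difference of the members was -0.16 in that fit. The part of the poly-A level, or of the hybridisation level, in the differences below cannot be told apart from the fraction's.

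The first question was whether the ribosome and import genes differed between the fractions. Most did not. In limma, with Benjamini-Hochberg adjustment over all probe sets and a threshold of 0.05, 4 of the 76 fell in SSEA1+: the large subunit genes MRPL24, MRPL39 and MRPL9 and the import receptor TOMM70. This is 5.26% of the members, against 4.18% of all 6765 genes that fell. No member rose, against 3.21% of all genes, and at an unadjusted p under 0.05 there was 1 higher member, MRPS2, and 11 lower ones, or 1.32% and 14.5% of the members, where all genes gave 10.3% and 13.5%. The share of members that fell was therefore close to that of the array as a whole.

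The differences were small in both groups. The median log2 difference, SSEA1+ minus SSEA1-, was -0.035 over the 58 ribosome genes, with 34 of them lower, and -0.042 over the 18 import genes, with 12 lower. Over all genes it was -0.0085. By subset the medians were -0.025 for MRPL, -0.041 for MRPS, -0.049 for TIMM and 0.0026 for TOMM. The members ranged from -0.39 for TOMM70 to 0.17 for MRPL38. For 73 of the 76 the 95% interval of the difference lay within 1.5-fold either way, against 90.0% of all genes, and the others were MRPS5, TIMM8A and TOMM70. These intervals are for each gene alone and are not adjusted for the number of genes.

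**Figure D1:**
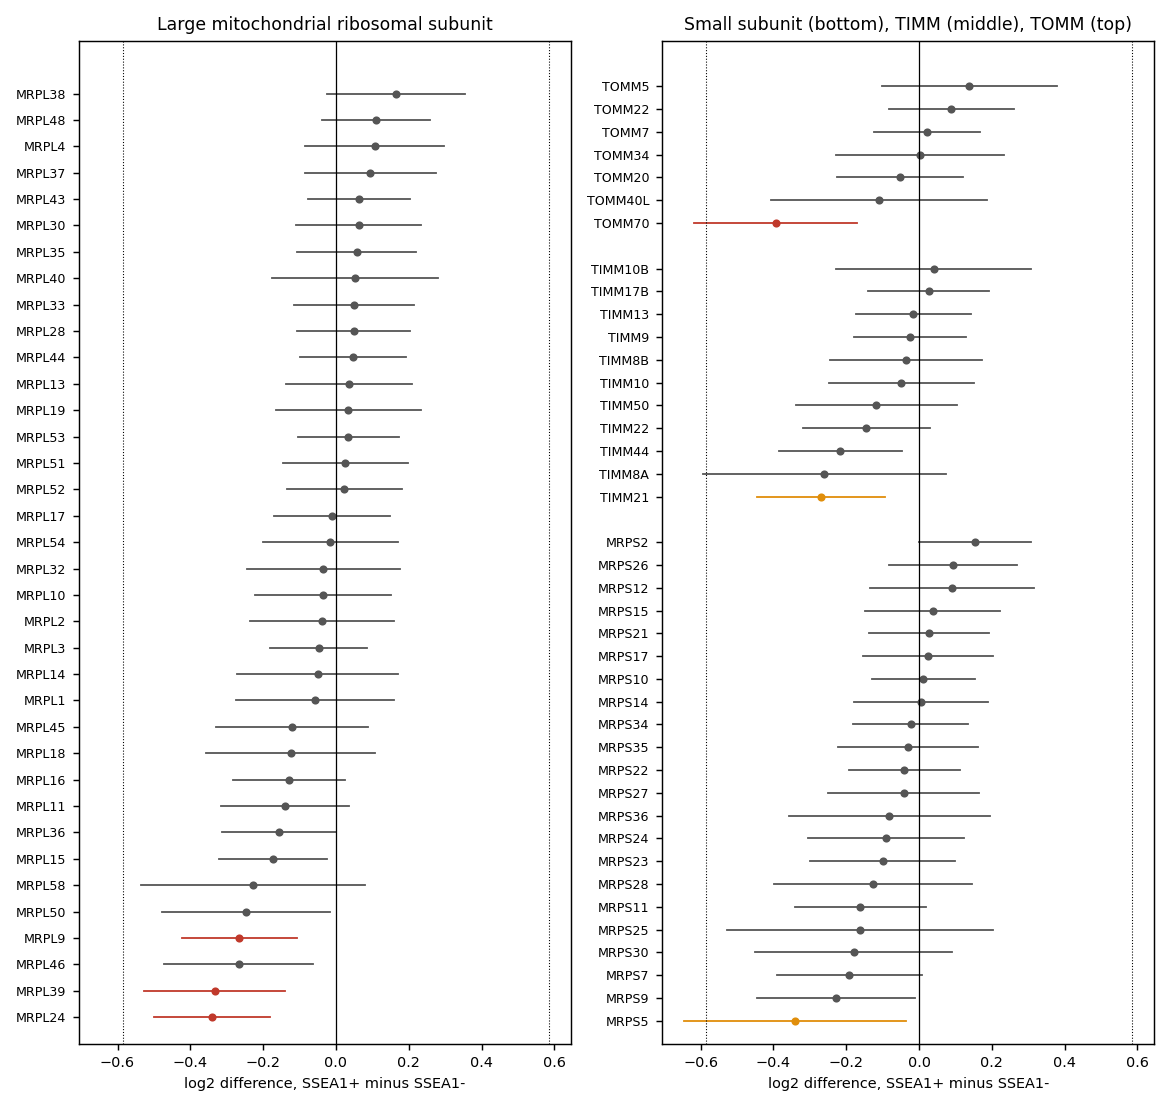
Log2 difference between SSEA1+ and SSEA1- (x axis) for each of the 76 members, with its 95% limma interval as a line. Red marks the 4 genes past an adjusted p of 0.05, orange the 2 that passed with the replicate number as a block, and dotted lines mark 1.5-fold; most intervals cross 0 and 73 lie within the dotted lines.

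Among large subunit genes MRPL24, the counterpart of bacterial ribosomal protein L24, had the smallest p. Its log2 signal was 1.48, 1.43, 1.53, 1.61 and 1.53 in SSEA1+ replicates 1 to 5 and 1.73, 1.83, 1.91, 2.04 and 1.77 in the SSEA1- replicates. The fractions did not overlap, and the signal was low on every array although above background. The means were 1.52 ± 0.07 and 1.86 ± 0.12 (SD, n = 5 each), a fall of 1.26-fold (log2 difference -0.34 ± 0.07, SE; adjusted p = 0.0176 in limma). The call held without any single array, with adjusted p-values up to 0.0499 in limma, close to the threshold. It ended without both arrays of replicate 1, 2, 3 or 5.

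MRPL39, a large subunit protein that is specific to mitochondrial ribosomes, read 4.88, 4.90, 4.99, 5.08 and 5.21 in SSEA1+ and 5.21, 5.16, 5.38, 5.48 and 5.49 in SSEA1-. The fractions overlapped slightly, since SSEA1+ replicate 5 lay above SSEA1- replicate 2, but the positive array was the lower one in 5 of 5 pairs. The log2 difference was -0.33 ± 0.09 (SE, adjusted p = 0.0458 in limma). MRPL9, the counterpart of bacterial L9, read 4.96, 4.77, 4.81, 4.71 and 4.86 in SSEA1+ and 5.16, 4.92, 5.08, 5.10 and 5.17 in SSEA1-, overlapping through SSEA1+ replicate 1. It was also lower in 5 of 5 pairs, by 0.15 to 0.39, with a log2 difference of -0.27 ± 0.07 (SE, adjusted p = 0.0490 in limma). Both calls were near the threshold. The MRPL39 call ended in 7 and the MRPL9 call in 8 of the 10 single-array leave-outs, with adjusted p-values up to 0.114 and 0.119, and both ended without any one pair of arrays and under median centring, quantile normalization and cyclic loess. The MRPL9 call also ended with the control probe sets left out of the fit (adjusted p = 0.0504) and with trend and robust eBayes settings (0.0586).

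The 2 largest positive differences among large subunit genes did not pass. MRPL38 read 4.00, 3.64, 3.68, 3.83 and 3.86 in SSEA1+ and 3.68, 3.41, 3.64, 3.72 and 3.74 in SSEA1-, higher in 5 of 5 pairs, at a log2 difference of 0.17 with an adjusted p of 0.330 in limma. MRPL48 read 4.56, 4.39, 4.62, 4.56 and 4.40 in SSEA1+ and 4.37, 4.33, 4.41, 4.42 and 4.45 in SSEA1-, at 0.11 and an adjusted p of 0.421. The values of both fractions overlapped for both genes. The remaining 31 MRPL genes lay between the -0.27 of MRPL46 and the 0.11 of MRPL4. They include MRPL1, MRPL2, MRPL3 and MRPL11, whose bacterial counterparts are core ribosomal proteins, and MRPL58, a peptidyl-tRNA hydrolase built into the subunit, which read -0.23 at an adjusted p of 0.427.

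Of the 22 small subunit genes none passed in limma, with 1 higher and 2 lower at an unadjusted p under 0.05. MRPS5, the counterpart of bacterial S5, had the largest difference, -0.34 ± 0.14 (SE, adjusted p = 0.193). Its log2 signal was 2.60, 2.52, 2.60, 3.22 and 2.68 in SSEA1+ and 3.04, 2.80, 2.87, 3.30 and 3.32 in SSEA1-. Replicate 4 was high in SSEA1+ and near its SSEA1- partner, while the other pairs differed by 0.27 to 0.64. With the replicate number as a block MRPS5 fell, at an adjusted p of 0.0280, as it did without SSEA1+ replicate 4, at 0.0264. MRPS2 read 3.95, 3.81, 3.93, 3.85 and 3.75 in SSEA1+ and 3.86, 3.69, 3.70, 3.68 and 3.58 in SSEA1-. It was higher in 5 of 5 pairs by 0.09 to 0.23, at a difference of 0.15 and an adjusted p of 0.248. The remaining 20 MRPS genes lay between -0.23 for MRPS9 and 0.09 for MRPS26.

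**Figure D2:**
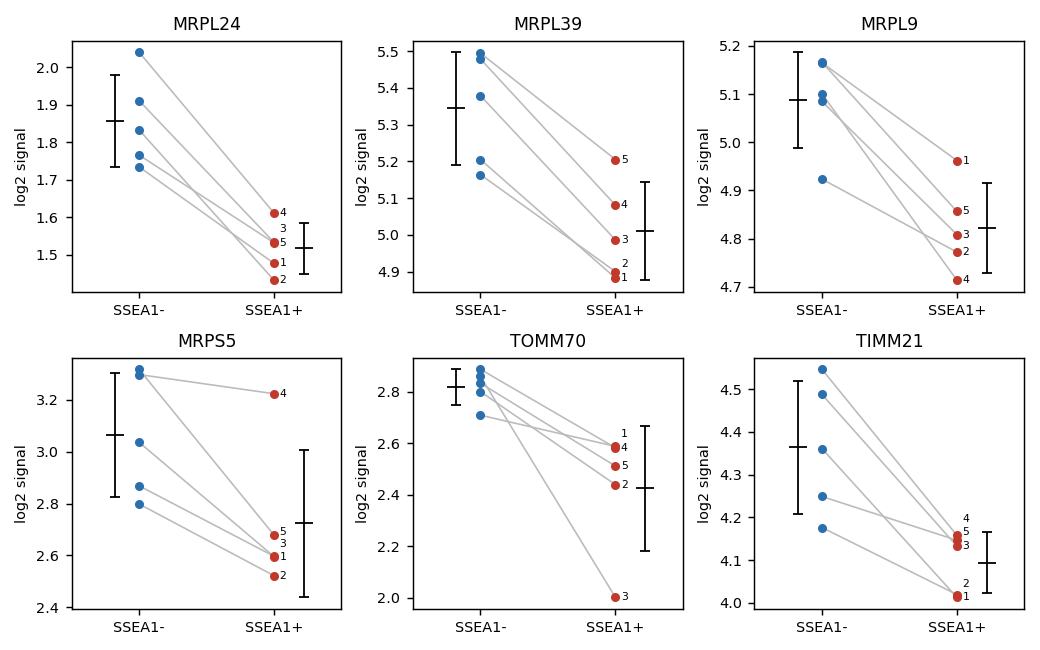
Log2 signal (y axis) of MRPL24, MRPL39, MRPL9, MRPS5, TOMM70 and TIMM21 on each of the 10 arrays, with grey lines joining arrays of the same replicate number (printed beside the SSEA1+ points) and black bars for mean ± SD, n = 5. Every line slopes down from SSEA1- to SSEA1+; the low SSEA1+ value of TOMM70 is replicate 3, at 2.00.

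In the outer membrane TOMM70, the receptor that takes carrier precursors handed over by cytosolic chaperones, was the single import gene that fell. It read 2.59, 2.44, 2.00, 2.58 and 2.51 in SSEA1+ and 2.71, 2.80, 2.86, 2.89 and 2.83 in SSEA1-. The fractions did not overlap, and SSEA1+ replicate 3 lay well below the other positive arrays. The means were 2.42 ± 0.24 and 2.82 ± 0.07 (SD, n = 5 each), a fall of 1.31-fold (log2 difference -0.39 ± 0.10, SE; adjusted p = 0.0424 in limma). The call held without SSEA1+ replicate 3 or 4 and ended without any of the other 8 arrays, without any pair, and under quantile normalization and cyclic loess. With the poly-A level as a covariate the difference was -0.05 ± 0.17 (SE), against -0.41 ± 0.14 for MRPL24. Neither gene passed in that fit (adjusted p = 0.943 for TOMM70 and 0.263 for MRPL24 in limma).

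The other TOM genes did not pass. The presequence receptor TOMM20 differed by -0.05 and the small subunit TOMM7 by 0.02. TOMM22, the central receptor, read 7.69, 7.51, 7.64, 7.60 and 7.66 in SSEA1+ and 7.57, 7.34, 7.43, 7.72 and 7.60 in SSEA1-, at 0.09 with an interval of -0.08 to 0.26. The small subunit TOMM5 read 6.54, 6.18, 6.67, 6.33 and 6.54 in SSEA1+ and 6.40, 6.07, 6.15, 6.42 and 6.55 in SSEA1-, at 0.14 with an interval of -0.10 to 0.38. TOMM40L, a paralog of the channel protein, differed by -0.11, and TOMM34 by 0.0026. For TOMM22 and TOMM5 the SSEA1+ array was higher in 4 and 3 of the 5 pairs, and the fractions overlapped.

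In the inner membrane none of the 11 TIMM genes passed in limma, with 2 lower and 0 higher at an unadjusted p under 0.05. TIMM21, a subunit of the presequence translocase, read 4.01, 4.02, 4.13, 4.16 and 4.15 in SSEA1+ and 4.36, 4.18, 4.49, 4.55 and 4.25 in SSEA1-. The fractions did not overlap, and the difference was -0.27 ± 0.08 (SE, adjusted p = 0.0685), or 0.0355 with the replicate block and 0.0326 without SSEA1- replicate 2. TIMM44, which ties the import motor to the channel, differed by -0.22, the presequence receptor TIMM50 by -0.12 and the channel protein TIMM17B by 0.03. TIMM22, the channel of the carrier translocase, differed by -0.14.

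The small TIM chaperones of the intermembrane space, which hold carrier precursors in solution, differed little, with a median of -0.030 over 6 genes. TIMM9, TIMM10, TIMM13 and TIMM8B lay between -0.05 and -0.02. TIMM8A read 4.05, 3.51, 4.03, 4.12 and 4.12 in SSEA1+ and 4.13, 3.85, 4.08, 4.39 and 4.70 in SSEA1-, lower in 5 of 5 pairs at -0.26 with an interval of -0.59 to 0.07. TIMM10B read 4.50, 4.09, 4.47, 4.74 and 4.60 in SSEA1+ and 4.45, 4.12, 4.39, 4.67 and 4.56 in SSEA1-, at 0.04 with an interval of -0.23 to 0.31. For both genes replicate 2 was the lowest array of its fraction.

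Fractions that did not overlap were found for 3 members, MRPL24, TOMM70 and TIMM21, each lower in SSEA1+, against 4.55% of all genes lower and 3.96% higher by that criterion. The SSEA1+ array was lower in 5 of 5 pairs for 14 members and higher in 5 of 5 for 5, where all genes gave 16.4% and 12.6%. With the replicate block 6 members fell and none rose, MRPS5 and TIMM21 joining the 4 genes above, against 8.62% of all genes lower and 5.65% higher. At an unadjusted p under 0.05 the blocked fit gave 13 lower and 2 higher, or 17.1% and 2.63%, against 17.1% and 12.6% of all genes. By each of these measures the share of members lower in SSEA1+ was near that of all genes.

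Of the 76 members 17 had more than one probe set, with 23 probe sets besides the brightest, and 15 of these had the sign of the brightest. MRPL46 was the member with a second probe set past the threshold: that probe set differed by -0.38 (adjusted p = 0.0469 in limma) and the brightest by -0.27 (0.123). The dimmest, above background on 1 array, read 0.10. The second probe set of MRPL3 differed by -0.26 without overlap of the fractions (adjusted p = 0.0548), whereas the brightest read -0.05. MRPL24, MRPL39, MRPL9 and TOMM70 each had 1 probe set, so their falls rest on a single measurement per array. Over all probe sets other than controls 3.51% fell and 2.5% rose.

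The members' array medians also differed by replicate number. Each gene was set against its own mean over the 10 arrays, and the median of these deviations was taken on each array. For the ribosome genes this median was 0.05, -0.14, 0.02, -0.01 and -0.02 in SSEA1+ replicates 1 to 5 and 0.02, -0.14, 0.00, 0.16 and 0.08 in SSEA1-. For the import genes it was 0.04, -0.16, 0.01, -0.02 and -0.01 in SSEA1+ and 0.03, -0.21, -0.01, 0.18 and 0.07 in SSEA1-. Replicate 2 was the lowest array of both fractions in both groups and SSEA1- replicate 4 the highest. The median over all genes stayed between -0.017 and 0.033, and the order of these 2 replicates was the same under median centring, quantile normalization and cyclic loess, with replicate 2 at -0.14 to -0.22 and SSEA1- replicate 4 at 0.16 to 0.20.

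**Figure D3:**
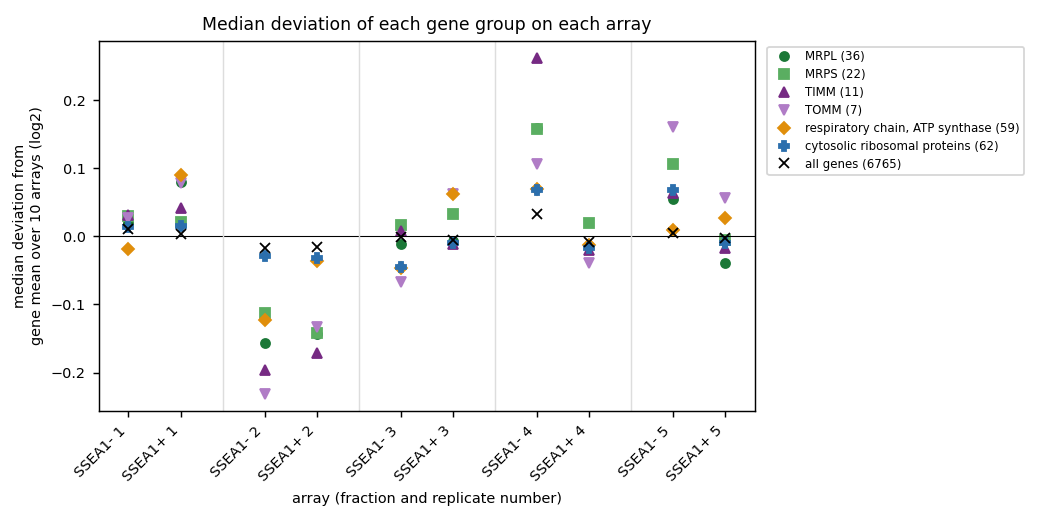
Median deviation of each gene group from its genes' own means over 10 arrays (y axis, log2), by array (x axis, fraction and replicate number), with the number of genes in brackets. The 4 member subsets lie below -0.10 on both replicate 2 arrays and above 0.10 on SSEA1- replicate 4, where all genes lie between -0.017 and 0.033.

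Of the 76 members 46 had replicate 2 as the lowest array in both fractions, or 60.5%, against 15.5% of all genes. The share was 60.3% among ribosome and 61.1% among import genes. MRPS25 was lower in replicate 2 than in the other replicates by 0.63 on the log2 scale, MRPL58 by 0.54 and TIMM8A by 0.52, all named after their values were seen. For single genes the differences between replicate numbers did not pass: an F test of the replicate number in limma's blocked fit gave 0 of 76 past an adjusted p of 0.05, against 2.48% of all genes, and 13 at an unadjusted p under 0.05, or 17.1%, the same share as among all genes. TIMM10B had the smallest adjusted p, 0.0595.

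The same count was 52.5% among 59 respiratory chain and ATP synthase subunits and 17.7% among 62 cytosolic ribosomal proteins, 2 gene groups set beside the members after the data were seen. None of these genes passed the F test either, with 2 and 1 at an unadjusted p under 0.05. Among 24 proliferation genes replicate 2 was likewise the lowest of both fractions and SSEA1- replicate 4 the highest, while the order of the other arrays differed from that of the members. Their array median was -0.91 in SSEA1+ and -0.60 in SSEA1- for replicate 2, 0.83 for SSEA1- replicate 4, and 16 of the 24 passed the F test. Between fractions their median difference was -0.50, and 3 of the 24 fell in SSEA1+, where 4.18% of all genes fell. That list was also added after the data were seen, and its part in the members' values was not tested.

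The difference between fractions accordingly varied from pair to pair. In pairs 1, 2 and 3, 29, 30 and 30 of the 76 members were lower in SSEA1+. These are 38.2%, 39.5% and 39.5%, where all genes gave 50.1%, 50.4% and 49.8%. In pair 4 this was 64 members, or 84.2%, and in pair 5 it was 54, or 71.1%, where all genes gave 56.5% and 51.8%. The ribosome median differed by 0.03, 0.00, 0.02, -0.17 and -0.10 in pairs 1 to 5 and the import median by 0.01, 0.05, 0.02, -0.20 and -0.08. Ribosome and import genes thus had like medians in each pair, lower in SSEA1+ in pairs 4 and 5 and near 0 in the others. In pairs 1, 2 and 3 the share of members lower was below that of all genes. The pairing of replicates 4 and 5 is less certain, as given below. Without both arrays of replicate 4 the ribosome median was 0.02 and the import median 0.0014.

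Other genes of the pathways were taken from lists, whose calls stand beside the 4.18% of all genes that fell and the 3.21% that rose. Of 26 measured import partners outside the TIMM and TOMM names, 3 fell and none rose on the brightest probe sets, with a median of -0.043. HSPA8 and DNAJA1, named after their values were seen, each had a dimmer probe set that rose. These differed by 0.58 and 0.30 (adjusted p = 0.0152 and 0.0278 in limma), whereas the brightest read -0.10 and -0.18 without passing. At an unadjusted p under 0.05, 6 of the 26 were lower and 1 higher, or 23.1% and 3.85%, against 13.5% and 10.3% of all genes. PMPCB, the catalytic subunit of the peptidase that removes presequences, fell from 6.69 ± 0.13 to 6.36 ± 0.10 (SD, n = 5 each; adjusted p = 0.0303 in limma), without overlap. HSPA9, the matrix Hsp70 that pulls precursors in, fell by 0.33 on the log2 scale, and one of its 2 other probe sets fell too, by 0.67. HSP90AA1, a cytosolic Hsp90 known to hand precursors to TOMM70, fell by 0.23 on its brightest probe set, but its 4 other probe sets read 0.03 to 0.44, and the last of these rose (adjusted p = 0.0471 in limma), so its direction depends on the probe set. The PMPCB call ended without any one of 7 arrays and those of HSPA9 and HSP90AA1 without any one of 8.

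**Figure D4:**
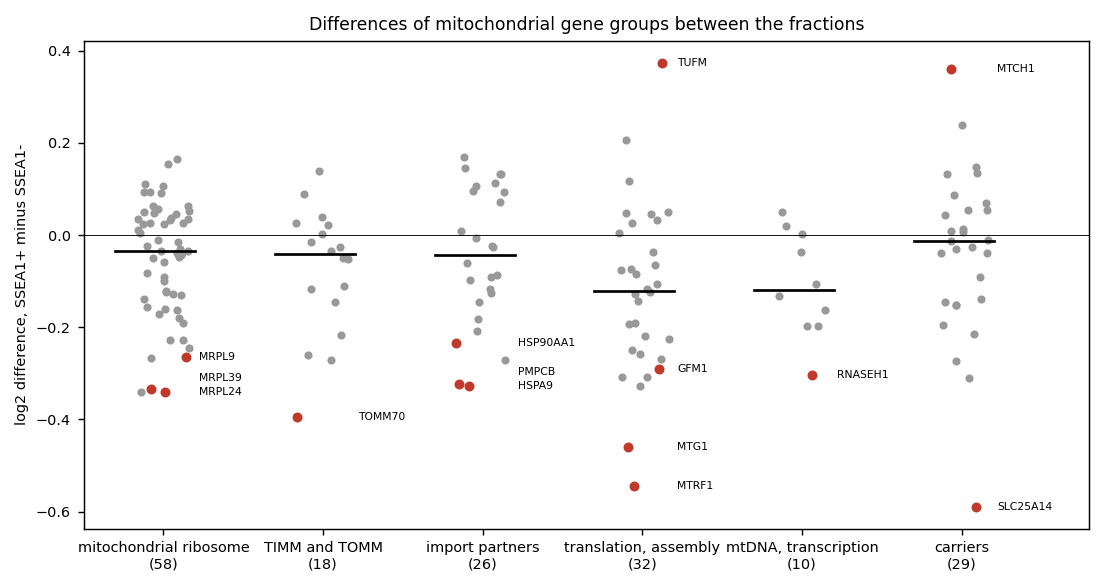
Log2 difference between SSEA1+ and SSEA1- (y axis) for each gene of the 2 member groups and the 4 pathway lists, with the number of genes in brackets, a bar at the median, and genes past an adjusted p of 0.05 in red with their names. The medians lie between -0.12 and -0.01, and TUFM and MTCH1 are the genes that rose.

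Of 32 measured genes of mitochondrial translation and ribosome assembly, 3 fell and 1 rose, and the median was -0.12. At an unadjusted p under 0.05, 11 were lower and 2 higher, or 34.4% and 6.25%, against 13.5% and 10.3% of all genes. The translation factors did not move one way. TUFM, the elongation factor that brings aminoacyl-tRNA to the mitochondrial ribosome, rose from 5.36 ± 0.09 to 5.74 ± 0.13 (SD, n = 5 each; adjusted p = 0.0146 in limma), without overlap. GFM1, the elongation factor that moves the ribosome along, fell by 0.29, MTG1, a GTPase of ribosome assembly, fell by 0.46, and MTRF1, a release factor with a dim signal of 1.15 against 1.69, fell by 0.54. The calls of TUFM, MTG1 and MTRF1 held without any single array, and that of GFM1 ended in 9 of 10. Without pairs of arrays MTG1 kept its call in 5 of 5 fits, MTRF1 in 3 and TUFM in 2. MTG1 was the one named gene, members included, that passed with the poly-A covariate, at -0.84 ± 0.13 (SE), and MTRF1 read -0.89 ± 0.18 there.

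Of 10 measured genes of mitochondrial DNA upkeep and transcription, RNASEH1, which removes RNA from DNA hybrids, fell by 0.30 (adjusted p = 0.0495 in limma). The call ended in 8 of 10 single-array leave-outs, and with the poly-A covariate the difference was -0.15 ± 0.16 (SE). TFAM, the packaging factor of mitochondrial DNA, named after its value was seen, read -0.20 on its brightest probe set without passing, while a dimmer one fell by 0.35 (adjusted p = 0.00653 in limma) and the others read -0.20 and -0.06. The median of the list was -0.12. At an unadjusted p under 0.05, 4 were lower and 0 higher, or 40% and 0%, against 13.5% and 10.3% of all genes.

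Mitochondrial carriers, many of them substrates of the TIMM22 route, had a median of -0.013 over 29 measured genes. Of these 1 rose and 1 fell. At an unadjusted p under 0.05, 3 were lower and 2 higher, or 10.3% and 6.90%, against 13.5% and 10.3% of all genes. MTCH1, a carrier-like protein of the outer membrane, rose from 6.32 ± 0.08 to 6.68 ± 0.07 (SD, n = 5 each; adjusted p = 0.00802 in limma). SLC25A14, an inner membrane carrier, fell from 1.99 ± 0.18 to 1.41 ± 0.25 (adjusted p = 0.0137 in limma), and its second probe set fell by 0.38. Both genes separated the fractions without overlap and kept their calls without any single array, and without pairs MTCH1 did so in 4 of 5 fits and SLC25A14 in 2. The ADP/ATP carriers SLC25A4, SLC25A5 and SLC25A6, named after their values were seen, read -0.09, 0.05 and 0.01.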

How the data were processed

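Gene expression was measured on 10 Affymetrix porcine arrays, 5 per fraction, with fraction and replicate read from the titles. Each deposited value is a log2 signal of 1 probe set; the submitters' processing notes name RMA, whose version and settings the sources used here do not give. Of 24123 probe sets 188 are controls. Names came from the platform annotation; 75 of the 76 members matched a RefSeq gene by identifier, all with the same symbol. With R 4.3.3 and limma 3.58.1, lmFit and eBayes were run on all probe sets to compare the fractions, and the procedure was tested on simulated data. Genes with values for every array were the members that passed and the 3 highest and 3 lowest of each group; from each pathway list up to 4 passing genes per direction were named. The members, lists and tests were chosen with earlier results of these data known, and the replicate F test, the proliferation list and the comparison groups after the values were seen. Members and lists get no test as a set.

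After each fraction's mean was taken off, arrays sharing a number had correlations of 0.212 (replicate 1), 0.580 (2), 0.353 (3), 0.122 (4) and 0.235 (5). All exceed 0.1, but arrays of different numbers reached 0.314, so that level does not tell pairs from other arrays. The series text can be read as each sort giving both fractions, and the numbers were treated as pairs. For replicates 1, 2 and 3 the highest correlation with another number was lower than their own, at 0.066, 0.062 and 0.297. Replicates 4 and 5 are less certain, since an array of another number correlated better, at 0.314 for both. Array medians ran from 1.15 to 1.19, and the number of arrays limits the precision. Alternatives were the replicate block (fixed or random), scalings, filters, weights, eBayes settings, the choice of probe set, the poly-A covariate, a threshold of 0.1 and leave-outs.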

Additional observations from a re-analysis of the deposited data

Results flagged for a closer look

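Arrays standing apart from the other 4 of their fraction, by Dixon's ratio of gap to range above 0.71, were looked for in the 13 members given for every array and in 6 group medians, 38 sets of 5 arrays in all; chance gives about 1 in 20. MRPS5 in SSEA1+ replicate 4 read 3.22, against 2.68 for the next array. TIMM8A in SSEA1+ replicate 2 read 3.51, against 4.03. TOMM70 in SSEA1+ replicate 3 read 2.00, against 2.44, and without that array its difference still passed. The MRPS median in SSEA1+ replicate 2 lay at -0.14, against -0.0058 for the next array, and the TIMM median there at -0.17, against -0.020. Of these 5 values, 3 come from SSEA1+ replicate 2.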

How the results depend on the processing

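No member rose under any alternative run. The count of ribosome genes that fell, 3, was 1 with median centring, repeated quantile normalization or cyclic loess, and 0 with the poly-A covariate, alone or with the replicate block. The count of import genes that fell, 1, was 2 with the replicate block (fixed or random), with array weights and at a threshold of 0.1. It was 0 with quantile normalization, cyclic loess, eBayes with trend and robust settings and the poly-A covariate, alone or with the block. The cause was not tested. Leaving out single arrays gave 1 to 5 ribosome and 0 to 1 import genes, with 5 without SSEA1- replicate 2, and leaving out pairs gave 0 to 1 and 0, with fewer arrays in the fit. The medians ran from -0.064 to 0.017 and from -0.10 to 0.0014 over leave-outs. They were -0.17 and -0.16 with the poly-A covariate and -0.19 and -0.22 with the block beside it, where all genes had -0.021 and -0.050; the fractions do not overlap in that level, so these values are extrapolated. The replicate F test counted 0 to 1 ribosome genes over pair leave-outs, MRPS25 being the 1 without replicate 4, and 0 import genes. Of the 76 members, 23 changed sign in the fit with the poly-A covariate. When the replicate block was added to that fit, the number was again 23. Over leave-outs it reached 13, without both arrays of replicate 4. The genes given next are only those among the 13 members with every array given and the pathway genes that passed. Signs turned with the poly-A covariate for MRPL48 (-0.021), MRPS2 (-0.023), TIMM10B (-0.035), TOMM22 (-0.019) and TOMM5 (-0.073). With the block added they turned for TOMM22 (-0.22), TOMM5 (-0.41), TOMM70 (0.20), HSPA9 (0.0055) and RNASEH1 (0.0064). TIMM10B read -0.039 to 0.14 over single-array leave-outs, negative without SSEA1+ replicate 4 (-0.025) and SSEA1- replicate 2. HSP90AA1 read 0.10 with the mean of its probe sets and 0.44 with the most variable one. MRPL24 kept its call under each scaling, filter and weighting. It lost the call with the poly-A covariate, alone or with the block, and without both arrays of replicate 1, 2, 3 or 5. It has 1 probe set, so the choice of probe set could not change its values.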
